A study of Panax japonicus with 15 samples.

Results

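The G period of fruit colour was compared with the B period in seed-free pericarp, the wall of the fruit, of Panax japonicus, a medicinal relative of ginseng. RNA was sequenced from 15 libraries, 3 for each of 5 colour periods that the labels call B, G, P, R and Y, and 6 of them, G replicates 1 to 3 and B replicates 1 to 3, make up the comparison. The G and B groups share species, tissue and preparation, and differ by period; the labels give no genotype, plant age, treatment or harvest date, do not spell out the letters and state no order of the periods. The protocol calls the 3 libraries of a period biological replicates without tying them to plants, so p-values below reflect how far these particular samples spread, which may be technical.

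In a ripening fruit wall, chlorophyll is broken down and carotenoids, anthocyanins or other flavonoids build up, while cell walls loosen and sugars and aroma compounds accumulate. These changes are accompanied by broad shifts in transcription, with photosynthesis genes among those known to decline in many fruits. The features of the table are called transcript clusters here after the form of their identifiers. The table pairs no identifier with a gene name, so no function can be given to any of them and pericarp marker genes were not checked.

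A transcript cluster entered the comparison when its value was at least 1 TPM in at least 3 of the 6 G and B libraries, which 79568 of the 462117 rows did. TPM divides reads by transcript length and scales every library to the same total. All 79568 were among the 138664 that reached 1 TPM in at least 3 of all 15 libraries, and p-values were adjusted over those 138664. Just inside the rule, 21929 transcript clusters reached 1 TPM in exactly 3 of the 6 libraries, with a median of 1.34 TPM over the 6. Just outside it, 42268 did so in exactly 2, with a median of 0.845 TPM. Of the members, 2325 passed through the G libraries alone and 3738 through the B libraries alone, so these had to differ between the periods.

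The members held 80.5% ± 3.55 of TPM in the G libraries and 78.8% ± 3.69 in the B libraries (SD, n = 3 each). The number of transcript clusters above 0 was 158045 ± 13301 in G and 168123 ± 7461 in B (SD, n = 3 each), with a two-sided exact permutation p of 0.4, where 0.1 is the smallest that 3 against 3 allow. Within-period spread over the members was similar, with a median SD on the log2(TPM + 1) scale of 0.56 in G and 0.53 in B. Read depth is unknown because TPM keeps none.

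Between G and B, 7788 members differed, of which 3671 were higher and 4117 lower in G (limma, adjusted p under 0.05). Over all 138664 tested transcript clusters 5.73% were called, 2.69% higher and 3.04% lower. Among the members 9.79% were called, 4.61% higher and 5.17% lower. The rule for members leaves out transcript clusters that are low in these 6 libraries, so the 2 shares have different bases and no more is read from them. Among the 73505 members that reached 1 TPM in at least 1 library of each period, 2437 were higher and 2423 lower, or 50.1% higher. In bulk RNA, fewer cells of a type and less RNA per cell cannot be told apart.

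Which direction was more numerous depended on the scaling. Of the called members 47.1% were higher in G on the TPM as deposited, and 53.7% after median-ratio scaling, which moved the median log2 difference of all tested transcript clusters by 0.06. The number called fell whichever G or B library was left out, to between 4933 and 6946. Each leave-out also leaves its period with 2 libraries, so the fall is not laid to any particular library. Among the lowest, 4933 were called without B replicate 2, and 2365 were higher without G replicate 2 and 2445 without B replicate 3. The number lower was 2480 without B replicate 2, 2712 without B replicate 3 and 2738 without G replicate 3.

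**Figure D1:**
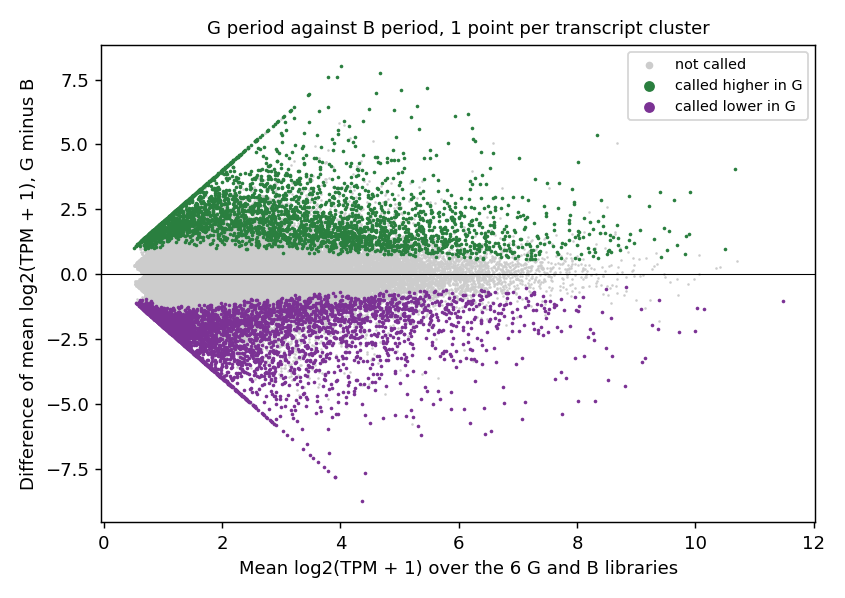
Each point is a transcript cluster that passed the rule, with its mean log2(TPM + 1) over the 6 libraries on the x axis and the G minus B difference of means on the y axis; green marks the 3671 called higher in G, purple the 4117 called lower, grey the rest. The straight outer edges are transcript clusters listed at 0 in every library of a period, and calls appear at every abundance.

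Most called differences were large. The median difference on the log2(TPM + 1) scale was 1.91 among the members higher in G, with quartiles of 1.47 and 2.57, and 2.00 in size among those lower, with quartiles of 1.54 and 2.74. Over all members the median size was 0.60. A difference of at least 2, which is 4-fold on this scale, was reached by 1701 of the higher and 2060 of the lower members, and of at least 4 by 188 and 252. The largest were 8.01 upward and 8.73 downward. Since a call needs a difference beyond the spread, these sizes belong to the called set and not to the members as a whole.

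The 3 G libraries lay above the 3 B libraries, without overlap, for 9507 members and below them for 13085, or 11.9% and 16.4% of the members, together 28.4%. Over all tested transcript clusters these shares were 8.16%, 11.6% and 19.8%. Called members were nearly all separated in this way, with 3651 of 3671 higher and 4112 of 4117 lower. The separated members include 2325 that passed the rule through the G libraries alone and 3738 through the B libraries alone. For these the rule itself fixed the separation. The smallest two-sided exact permutation p for 3 against 3 is 0.1, so separation is a looser criterion than the adjusted test. More members separated the periods than passed that test, and no more is read from this surplus.

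Abundant members were called more often, and in the abundant classes more were higher than lower in G. Of 919 members with a mean of at least 100 TPM over the 6 libraries, 388 were called, or 42.2%, with 229 higher and 159 lower. From 10 to 100 TPM, 2788 of 14499 were called, 1500 higher and 1288 lower. From 1 to 10 TPM the balance was the other way, with 1780 higher and 2492 lower of 58597. Under 1 TPM, 162 were higher and 178 lower of 5553.

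After median-ratio scaling the higher share grew in each class, from 59.0% to 62.9% of the calls at 100 TPM or more, from 53.8% to 60.9% from 10 to 100 TPM, from 41.7% to 47.7% from 1 to 10 TPM, and from 47.6% to 54.9% under 1 TPM. The 2 abundant classes kept more higher than lower under both scalings; the class under 1 TPM turned. The log2(TPM + 1) scale understates differences of low values, so the smaller called share among rare members does not show that they changed less.

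Together the called members made up a sizeable part of the message pool at their high end. Those higher in G held 19.4%, 20.2% and 17.5% of TPM in G replicates 1, 2 and 3, and 5.65%, 4.50% and 4.48% in B replicates 1, 2 and 3. Those lower in G held 3.70%, 3.31% and 2.95% in the G libraries and 15.9%, 15.4% and 15.4% in the B libraries. The calls fix the direction of these sums, which describe how much of the pool the called members occupy.

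Y and R, whose libraries entered the calls only through the shared estimate of spread, fell between the ends in the same order for both sums. Members higher in G held 14.7% ± 0.77 of TPM in Y and 11.5% ± 0.19 in R, and those lower in G held 7.66% ± 0.74 in Y and 10.8% ± 0.20 in R (SD, n = 3 each). In both sums no Y library overlapped an R library, a G library or a B library. The P period did not follow this order as a single step. It held 5.55% ± 0.99 in the members higher in G, next to B, but 11.0% ± 0.61 in those lower in G, next to R (SD, n = 3 each). The P libraries had the lowest share of TPM in the members as a whole, 64.5% ± 4.15 (SD, n = 3) against 83.5% ± 0.10 in R, and its part in these sums was not tested.

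**Figure D2:**
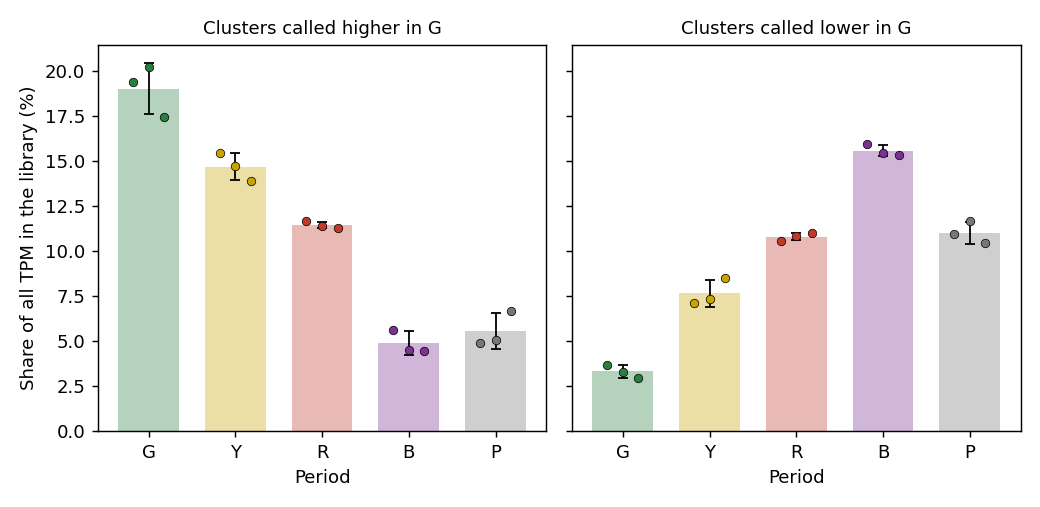
Share of all TPM in a library (y axis, percent) held by the members called higher in G (left) and lower in G (right), for each period; points are libraries, bars the mean and error bars the SD (n = 3). From G through Y and R to B the left bars step down from 19.0% to 4.88% and the right bars step up from 3.32% to 15.6%, while P stands at 5.55% and 11.0%.

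The gain and the loss were each carried by many transcript clusters rather than a handful. Summed over the members higher in G, mean TPM was 141604 greater in G than in B, and 171 of them made up 50% of this sum. The first 10 made up 14.4% and the first 100 made up 40.9%. For the members lower in G the summed difference was 122650 TPM, of which 155 made up 50%, the first 10 made up 14.0% and the first 100 made up 43.5%. A difference of at least 100 TPM was found for 257 of the higher and 187 of the lower members. In the whole pool, the 10 most abundant transcript clusters of each library held 2.66% ± 0.28 of TPM in G and 2.26% ± 0.10 in B (SD, n = 3 each; two-sided exact permutation test, p = 0.2, in a design that cannot go below 0.1).

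The transcript cluster with the largest gain, Cluster-64249.114148, was the most abundant of the called higher members. It stood at 6920, 6517 and 6502 TPM in G replicates 1 to 3 and at 740, 291 and 290 TPM in B replicates 1 to 3. The groups lie far apart, and B replicate 1 stands above the other B libraries. The ratio of means was 15.1, the log2(TPM + 1) difference 4.06 ± 0.53 (SE; limma, adjusted p = 0.000435), and this 1 transcript cluster made up 4.38% of the summed gain. Y and R lay between the ends at means of 1613 and 961 TPM.

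Cluster-64249.121056 and Cluster-64249.127983 shared this stepped pattern in their period means. In none of these 3 transcript clusters was Y called against R, or R against B (limma, adjusted p from 0.191 to 0.880). The first stood at 3063, 3332 and 2273 TPM in G replicates 1 to 3 against 336, 302 and 322 in B replicates 1 to 3, with 722 in Y and 490 in R on average. The second stood at 2572, 2152 and 1778 TPM in G against 401, 213 and 305 in B, with means of 834 in Y and 545 in R. In both, the lowest G library lay more than 4-fold above the highest B library. Their differences were 3.15 ± 0.20 and 2.85 ± 0.42 on the log2(TPM + 1) scale (SE; limma, adjusted p = 7.69e-07 and 0.00109).

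The other 2 of the 5 most abundant higher members did not step down through Y. Cluster-64249.146080 stood at 1697, 2588 and 1896 TPM in G and at 264, 285 and 148 in B, a difference of 3.18 ± 0.60 (SE; limma, adjusted p = 0.00604), with means of 2232 TPM in Y and 1527 in R. Cluster-64249.124432 stood at 1890, 2190 and 1949 TPM in G and at 1071, 954 and 1093 in B, a difference of 0.95 ± 0.12 (SE; limma, adjusted p = 0.000361), with 2221 in Y and 1910 in R. For both, Y and R were near the G level and B and P were low. Cluster-64249.124432 differed by a ratio of means of 1.93, a small change for a called member.

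The 5 most abundant members lower in G were reduced rather than absent. Cluster-64249.125422, the most abundant of them, stood at 4200, 3381 and 4769 TPM in B replicates 1 to 3 and at 2795, 1815 and 1537 in G replicates 1 to 3. The groups did not overlap, but G replicate 1 came near B replicate 2, and the call was lost without B replicate 3, G replicate 2 or G replicate 3 (difference of -1.04 ± 0.24, SE; limma, adjusted p = 0.0185, and 0.0768, 0.0681 and 0.0793 without them). Cluster-64249.126115 fell further, from 2838, 1992 and 1804 TPM in B to 749, 428 and 336 in G (-2.19 ± 0.24, SE; limma, adjusted p = 8.96e-05). Here R and Y stayed near the B end, at means of 2024 and 1716 TPM.

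Cluster-64249.126818 had Y near the G end instead. It stood at 2341, 1791 and 1431 TPM in B and at 439, 344 and 387 in G (-2.22 ± 0.35, SE; limma, adjusted p = 0.00168), with means of 550 TPM in Y and 1433 in R. Cluster-64249.124825 had the same arrangement with a smaller difference, from 1821 ± 340 TPM in B to 726 ± 224 in G (SD, n = 3 each; -1.36 ± 0.29, SE; limma, adjusted p = 0.0123, and 0.0559 without G replicate 3). Cluster-64249.125271 went from 1655 ± 221 TPM in B to 668 ± 38.9 in G (SD, n = 3 each; -1.30 ± 0.18, SE; limma, adjusted p = 0.000567), and its Y mean of 1582 TPM was next to B. The abundant lower members thus differed in where their Y and R means stood, but none was called between Y and R (limma, adjusted p from 0.235 to 0.942). In Cluster-64249.124825 Y was called against neither G nor B (limma, adjusted p = 0.659 and 0.126). G was the lowest of the 5 period means in all but Cluster-64249.125422, whose Y mean of 1997 TPM was just under its G mean of 2049.

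**Figure D3:**
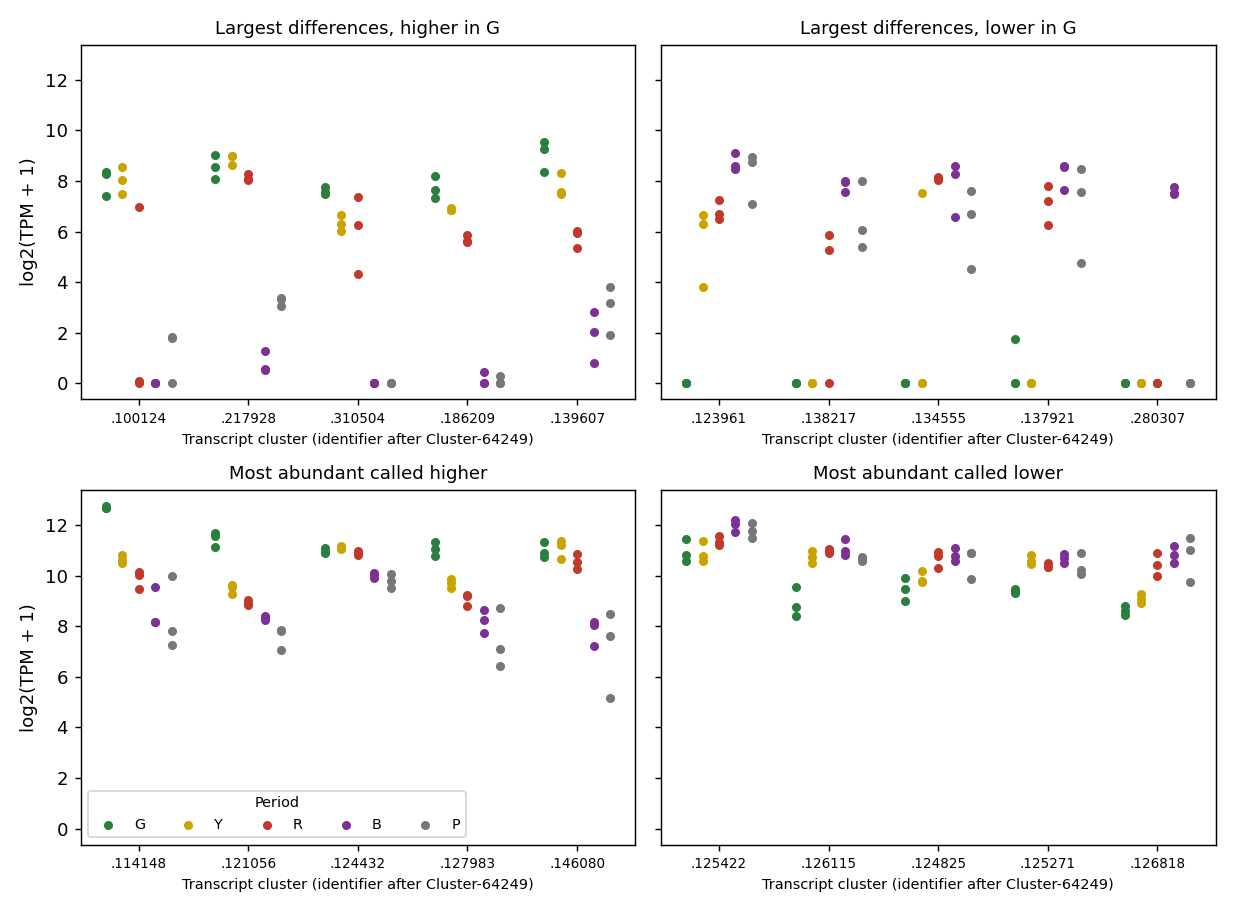
Each point is a library, its log2(TPM + 1) on the y axis, for the 20 transcript clusters with the largest differences (top) and the highest abundance (bottom) among the called members, coloured by period. Among the largest differences the low period is at 0 or a few TPM, whereas the abundant members lower in G stay above 8 in every library.

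In the 5 largest upward differences B was at 0 or a few TPM, and Y was at the G level or part of the way to it. Cluster-64249.217928 stood at 525, 376 and 268 TPM in G replicates 1 to 3 and at 1.44, 0.48 and 0.43 in B replicates 1 to 3. All 3 G libraries lay more than 100-fold above every B library (7.77 ± 0.26 on the log2(TPM + 1) scale, SE; limma, adjusted p = 3.37e-09). It was also high in Y and R, at 469 ± 62.3 and 281 ± 21.5 TPM, and low in P, at 8.53 ± 1.14 (SD, n = 3 each).

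Cluster-64249.186209 fell in the order G, Y, R, B, with the largest log2 step between R and B. It stood at 294, 202 and 161 TPM in G, at 116.9 ± 2.60 in Y and 50.8 ± 5.63 in R (SD, n = 3 each), and at 0.37, 0 and 0 in B. No library of G, Y, R or B overlapped the next of these periods (G minus B 7.58 ± 0.25, SE; limma, adjusted p = 3.37e-09). Cluster-64249.139607 fell in the same order, from 558 ± 210 TPM in G to 227 ± 80.3 in Y, 55.2 ± 13.4 in R and 3.29 ± 2.66 in B (SD, n = 3 each; G minus B 7.16 ± 0.54, SE; limma, adjusted p = 4.26e-06).

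Cluster-64249.100124 was listed at 0 in all 3 B libraries and stood at 169, 308 and 324 TPM in G replicates 1 to 3 (8.01 ± 1.33, SE; limma, adjusted p = 0.00255). It was as high in Y, at 375, 264 and 180 TPM. In R it was uneven, at 123, 0 and 0.05 TPM. All 5 periods share the estimate of spread, so the spread inside R enters the error of this difference.

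Of the 5 largest downward differences, 4 were listed at 0 in all 3 G libraries. Cluster-64249.123961 stood at 385, 355 and 551 TPM in B replicates 1 to 3, at 115 ± 33.3 in R and at 63.7 ± 45.6 in Y (SD, n = 3 each), so R and Y lay between the ends (-8.73 ± 0.62, SE; limma, adjusted p = 2.75e-06). Cluster-64249.138217 stood at 247, 253 and 186 TPM in B, at 57.4, 37.3 and 0 in R, and was listed at 0 in the Y libraries too (-7.83 ± 1.11, SE; limma, adjusted p = 0.000839). Cluster-64249.137921 was at 372, 201 and 383 TPM in B and at 0, 0 and 2.40 in G (-7.67 ± 0.77, SE; limma, adjusted p = 4.61e-05). In Cluster-64249.137921 R stood between the ends and Y at 0.

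Cluster-64249.134555 was as high in R as in B, at 272 ± 15.4 and 262 ± 149 TPM (SD, n = 3 each), and in Y it was 0, 0 and 183 TPM (-7.82 ± 1.50 for G minus B, SE; limma, adjusted p = 0.00676). Cluster-64249.280307 is the other extreme, at 184, 178 and 219 TPM in B and listed at 0 in the 12 libraries outside B (-7.60 ± 0.28, SE; limma, adjusted p = 5.6e-09). In all 5 the G libraries were at or near 0, while R ranged from 0 to the B level.

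Y and R were set against the G and B ends. For 5679 of the 7788 called members, or 72.9%, the Y mean lay strictly between the G and B means on the log2(TPM + 1) scale, and for 6036, or 77.5%, the R mean did. Over all members these shares were 41.2% for Y and 42.9% for R. The ends of the called members were chosen for being far apart, which by itself leaves more room between them, so the excess over all members is a description and carries no test. Both Y and R lay between the ends for 4809, or 61.7%, of the called members and for 26.3% of all members.

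The share with Y and R between the ends was larger among the members lower in G than among those higher in G, a difference that was not tested. Among the 4117 lower members Y was between the ends for 79.0% and R for 83.0%, and among the 3671 higher members for 66.1% and 71.3%. The remainder of the higher members lay mostly past the G end in Y, at 23.6%, against 12.1% in R. Among the lower members, Y was at or below the G mean for 16.5% and R for 6.78%; for 295 and 173 of these both means were exactly 0. Among the higher members Y was level with B, both at exactly 0, for 196 and R for 251.

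Y stood nearer to G and R nearer to B, in both directions of change. A position was set so that 0 is the B mean and 1 the G mean. Its median over the higher members was 0.664 in Y and 0.440 in R, and over the lower members 0.662 in Y and 0.415 in R. The 3 Y libraries taken singly gave medians of 0.708, 0.693 and 0.631 over the higher members and 0.662, 0.662 and 0.628 over the lower ones. The 3 R libraries gave 0.480, 0.462 and 0.448, and 0.397, 0.390 and 0.385. Every Y library lay above every R library in both sets. The median position over all members was similar, 0.637 in Y and 0.452 in R, but there the middle 50% of positions ran from -0.01 to 1.24 in Y and from -0.14 to 1.07 in R, against 0.346 to 0.936 and 0.155 to 0.726 among the called members.

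**Figure D4:**
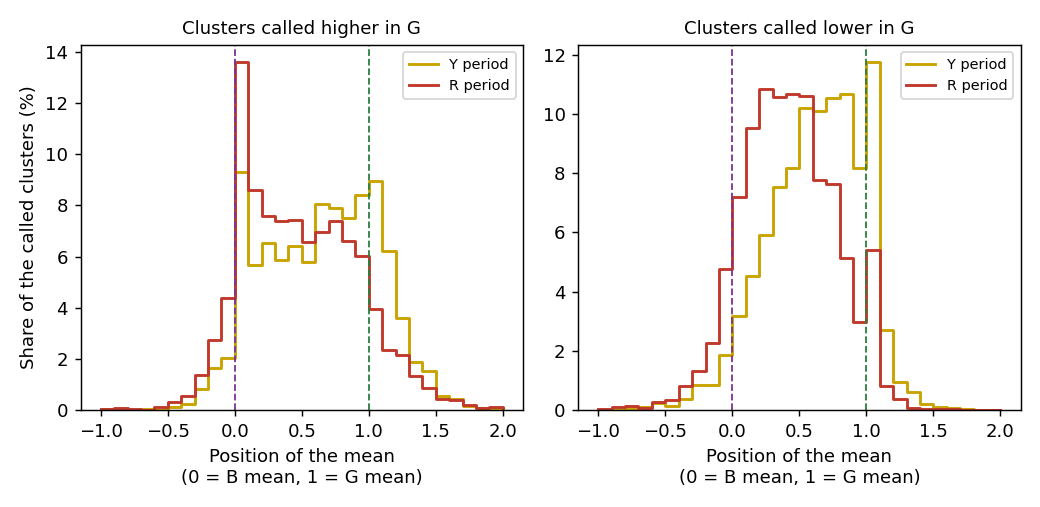
Distribution over the called members of the position of the Y mean and the R mean between the B mean (0, purple dashes) and the G mean (1, green dashes); the y axis is the share of the called members per step of 0.1. R is shifted toward B and Y toward G in both panels, and the steps that start at 0 (left) and at 1 (right) include transcript clusters listed at 0 in every library of the low end and of the period shown; between 2 and 9 per curve fall outside the axis.

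The complete order G, Y, R, B was held by the period means of 3745 called members, or 48.1%, and the order G, R, Y, B by 1061, or 13.6%. Over all members the shares were 16.6% and 9.65%. When every library of a period had to clear every library of the next, 348 called members kept the order G, Y, R, B, 119 of them higher and 229 lower in G. These are 4.47% of the called members. The share over all members was not computed, and nearly all called members already had G and B apart, so no more is read from this number. Cluster-64249.186209 is among the members with this strict order.

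The comparison of Y with R uses no G or B library, so its direction is not set by the calls between G and B, although the fit shares 1 estimate of spread. Members higher in G were on balance higher in Y than in R, and members lower in G were lower in Y than in R. The median Y minus R difference on the log2(TPM + 1) scale was 0.27 over the higher members, -0.38 over the lower members and -0.01 over all members. It was above 0 for 71.0%, 20.6% and 47.6% of these. Median-ratio scaling left the medians at 0.28 and -0.37.

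Few of these Y and R differences passed the test singly. Among the 3671 members higher in G, 25 were called higher and 1 lower in Y than in R (limma, adjusted p under 0.05), and among the 4117 members lower in G, 2 were called higher and 54 lower. Over all 138664 tested transcript clusters 0.217% were called, 0.107% higher and 0.11% lower in Y. As shares of their sets, the 25 are 0.681% and the 54 are 1.31%. Calls in both comparisons draw on the same estimate of spread, so a transcript cluster with tight libraries is more readily called in each; the directions do not depend on it. Cluster-64249.137921 was among the 54, with 75.1, 225 and 149 TPM in R replicates 1 to 3 and 0 in the 3 Y libraries (limma, adjusted p = 0.00105).

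P departed from Y in the members higher in G and in those lower in G, and from R mainly in those higher. These comparisons again hold no G or B library. The median P minus Y difference was -1.07 on the log2(TPM + 1) scale over the higher members, against -0.30 over all members, and 1417 of 3671, or 38.6%, were called lower in P than in Y (limma, adjusted p under 0.05). Of all tested transcript clusters 4.25% were called in this comparison, 3.3% lower in P. Against R, 931, or 25.4%, were called lower in P, where 2.78% of all tested were called, 2.29% lower. Over the members lower in G the median P minus Y difference was 0.29. Of these members 572, or 13.9%, were called higher and 108, or 2.62%, lower in P than in Y, where 0.95% and 3.3% of all tested were. After median-ratio scaling, which raised P minus Y over all tested from -0.24 to -0.11, the 1417 became 1116 and the 572 became 757. The median P minus Y differences were then -0.86 over the higher and 0.51 over the lower members.

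Between P and R, 196 of the members lower in G were called higher and 163 lower in P (limma, adjusted p under 0.05), or 4.76% and 3.96%, against 0.493% and 2.29% over all tested. After median-ratio scaling 286 were called higher and 95 lower. Placed between the ends, P had a median position of 0.006 over the members higher in G and 0.417 over those lower in G, against 0.400 over all members. P was therefore level with B where G was high, on the TPM as deposited. Where G was low, P was part of the way from B to G, close to its position over all members.

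Some transcript clusters were present in only 1 of the 2 ends. Over the whole table, 903 had at least 1 TPM in all 3 G libraries and were listed at 0 in all 3 B libraries, or 0.195% of rows, and 1438 had the reverse, or 0.311%. They were mostly rare, with a median of 3.80 TPM in G and 3.70 TPM in B, and held 0.748% of TPM in G and 1.20% in B. A mean of at least 10 TPM was reached by 162 and 271, and of at least 100 by 5 and 9. Of the 903, 669 were called higher, and of the 1438, 899 were called lower (limma, adjusted p under 0.05), the rule and the call being made on the same libraries.

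A value of 0 says only that the table lists 0, since a low message can be missed and the reads behind each value are unknown. G had fewer transcript clusters above 0 than B in the means given above, and the part of that in the larger number present in B alone was not tested. With at least 5 TPM asked of all 3 libraries the numbers were 156 for G and 258 for B. Leaving out a library loosens the rule for its own period: without a G library 2594 to 3094 were present in G alone and 2125 to 2600 in B alone, and without a B library 1319 to 1794 and 3327 to 4319. The balance therefore follows which period is held to fewer libraries.

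In the other periods, with at least 1 TPM asked of all 3 libraries, transcript clusters present in G but not B were found most often in Y. By the same criterion, those present in B but not G were found most often in R. Of the 903, 181 had at least 1 TPM in all 3 Y libraries, 109 in all 3 R libraries and 15 in all 3 P libraries, and 216, 281 and 451 were listed at 0 in all 3. Of the 1438, 264 had at least 1 TPM in all 3 R libraries, 160 in P and 144 in Y, and 215, 357 and 369 were listed at 0 in all 3. The P libraries differed among themselves, with 115, 167 and 353 of the 903 above 0 in P replicates 1, 2 and 3, in the same order as their numbers of transcript clusters above 0 (97466, 130422 and 187300). In Y 506, 501 and 427 of the 903 were above 0, and in R 431, 393 and 376. Of the 1438, 451, 660 and 878 were above 0 in P replicates 1, 2 and 3, against 871, 875 and 827 in R and 721, 715 and 623 in Y. P replicate 3 thus stood above every R library by this count.

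**Figure D5:**
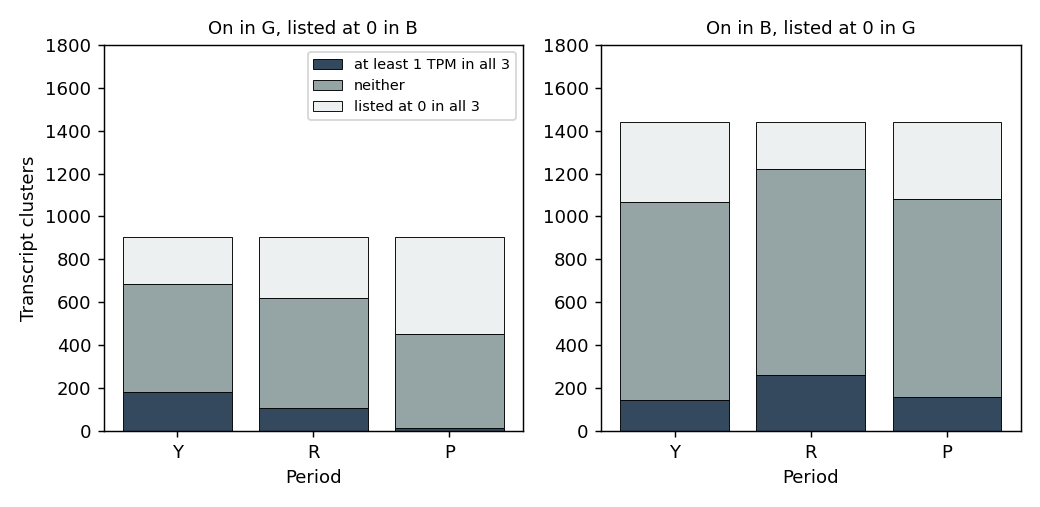
Number of transcript clusters (y axis) present in G and listed at 0 in B (left, 903) or present in B and listed at 0 in G (right, 1438), divided by their state in the 3 libraries of Y, R and P. On the left the part with at least 1 TPM in all 3 libraries shrinks from 181 in Y to 15 in P, and on the right it is largest in R, at 264.

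The transcript clusters present in G alone of the 2 ends with the highest minimum were Cluster-64249.310504, at 177, 186 and 218 TPM in G replicates 1 to 3, Cluster-64249.100124, described above, and Cluster-64249.320573, at 81.4, 65.6 and 85.9 TPM. Cluster-64249.310504 was also above 0 in all 6 Y and R libraries, from 18.8 to 164 TPM, and listed at 0 in P (7.60 ± 0.53, SE; limma, adjusted p = 2.28e-06). Cluster-64249.320573 was at 79.1, 33.0 and 22.3 TPM in R and at 0, 50.5 and 56.9 in Y (6.29 ± 1.10, SE; limma, adjusted p = 0.00382). In the reverse direction they were Cluster-64249.123961, Cluster-64249.138217 and Cluster-64249.280307, whose values are given above. All 6 were separated by more than 60 TPM between every library of the high period and the 0 of the other.

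Not every called member had its Y and R means between the ends. Both means lay above both ends for 465 called members and below both for 181. The shares of all members on each side were not computed, so no more is read from these counts. Neither Y nor R lay between the ends for 11.3% of the called members, against 42.2% of all members. Cluster-64249.328687 is the farthest above, at 146, 130 and 110 TPM in R and 233, 81.4 and 118 in Y, against 8.17, 27.1 and 14.4 in G and 2.33, 2.98 and 2.27 in B. G and B were both low here relative to Y and R (G minus B 2.17 ± 0.45, SE; limma, adjusted p = 0.0115, and 0.0521 without G replicate 2). Y and R were each called against G, the nearer end (limma, adjusted p = 0.00369 and 0.00251).

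Cluster-64249.124866, the next above, was uneven in B, at 1010, 78.0 and 99.9 TPM in B replicates 1 to 3, against 12.7, 0.36 and 4.33 in G, 649 ± 294 in R and 579 ± 118 in Y (SD, n = 3 each). B replicate 1 lay above all 3 R libraries, and B replicates 2 and 3 below them (G minus B -5.44 ± 0.96, SE; limma, adjusted p = 0.00398). Neither Y nor R was called against B, the nearer end (limma, adjusted p = 0.504 and 0.592). Below both ends stood Cluster-64249.134967, at 206, 131 and 104 TPM in G, 58.3, 43.6 and 52.7 in B, 20.8 ± 3.04 in R and 19.6 ± 4.34 in Y (SD, n = 3 each; G minus B 1.45 ± 0.38, SE; limma, adjusted p = 0.0411). This call was lost without any single B library or without G replicate 1 or 2, with adjusted p from 0.0625 to 0.141 (limma). In Cluster-64249.134967 too, Y and R were not called against B (limma, adjusted p = 0.0794 and 0.160).

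Cluster-64249.200138 was found at 67.3, 67.0 and 47.3 TPM in G and, of the other 12 libraries, only in B replicate 2, at 33.1 TPM. Its call (4.23 ± 0.96, SE; limma, adjusted p = 0.0192) was lost without B replicate 1 or 3 or G replicate 1 or 2, with adjusted p from 0.0565 to 0.0824 (limma). Y and R stood below its B mean through B replicate 2 alone, and were not called against B (limma, adjusted p = 0.437 and 0.559). Cluster-64249.124918, which stands among the members lower in G, was as uneven within B, at 50.9, 3353 and 2562 TPM in B replicates 1 to 3 and 3.96, 27.8 and 9.70 in G (-6.05 ± 1.57, SE; limma, adjusted p = 0.0372).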

How the data were processed

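The labels' protocols describe total RNA from dissected, frozen and ground pericarp, and cDNA libraries from fragmented mRNA with random primers. The values, which the authors deposited as a single table, are taken to be TPM from its name and because every column sums to between 999997 and 1000003; all 15 columns matched a library by title. Assembly, alignment and quantification tools: not given in the sources used here. Mouse builds GRCm38 and mm10 appear in the submitters' processing notes, and no identifier refers to them.

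A limma model (version 3.58.1, R 4.3.3) of the 5 period means was fitted to log2(TPM + 1) in all 15 libraries, with 10 residual degrees of freedom and a variance prior that follows mean expression. Transcript clusters with at least 1 TPM in at least 3 libraries were tested, Benjamini-Hochberg adjustment was made over all 138664 within each contrast, and the threshold was 0.05. The fit was tested on simulated data with normally distributed spread and no floor at 0. In these, 200 transcript clusters with a mean of at least 10 TPM were shifted in G. Changes in rarer transcript clusters and values listed at 0 were therefore not covered. No 2 libraries held identical values. Sums, positions and exact permutation tests used Python 3.11.15, pandas 2.3.3, NumPy 2.4.6 and SciPy 1.17.1.

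Named transcript clusters are called members without overlap of G and B libraries: the 5 largest differences each way with a mean of at least 10 TPM at the high end, the 5 most abundant each way, the 3 each way with the highest minimum among those listed at 0 at the other end, and the 2 each whose Y and R means lay farthest above or below both ends. This names 25. Cluster-64249.124918 was added after its values were seen. The members, rules and tests were chosen with earlier results of these data known. Alternatives were a pseudocount of 0.1, no filter, a mean of at least 10 TPM, median-ratio scaling over 33508 transcript clusters above 0 in every library, a replicate block, a variance prior without trend, the 6 libraries alone and each G or B library left out, with the same transcript clusters tested; a fit without P was added after seeing the data. TPM gives no counting error, and reads shared between similar transcript clusters cannot be seen.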

Additional observations from a re-analysis of the deposited data

How the results depend on the processing

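No named transcript cluster changed direction: of 350 values for the 25 under 14 alternatives, 328 kept their side of the threshold and 22 lost the call, all in 5 transcript clusters. Those that lost it outside the leave-outs were Cluster-64249.125422 (mean of at least 10 TPM, no variance trend, 6 libraries alone), Cluster-64249.134967 (no filter, no variance trend, replicate block) and Cluster-64249.200138 (no filter, 6 libraries alone). The cause was not tested in any of the shifts below.

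The number of called members was 4975 with no filter (2516 lower) and 4226 with a mean of at least 10 TPM (2236 higher, 1990 lower), where fewer transcript clusters were tested, and 9328 without P in the fit (4354 higher, 4974 lower). It ranged from 4933 to 6946 over the leave-outs, from 2365 to 3526 higher and from 2480 to 3420 lower. The share called higher was 45.4% with a pseudocount of 0.1, 49.4% with no filter, 52.9% with a mean of at least 10 TPM, 53.7% with median-ratio scaling, 45.9% with the 6 libraries alone, and from 45.1% to 50.8% over the leave-outs; at 100 TPM or more it ranged from 53.1% to 59.6% over them. Y lay between the ends for 69.1% with no filter, 70.2% with a mean of at least 10 TPM, 74.0% with median-ratio scaling, 74.8% with the 6 libraries alone, and from 69.5% to 74.4% over the leave-outs. R did so for 73.8% with no filter, 74.0% with a mean of at least 10 TPM, 78.7% with no variance trend, 79.8% with the 6 libraries alone, and from 76.1% to 77.6%.

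Higher members held in G and B 14.6% and 3.32% with no filter, 20.7% and 5.71% with median-ratio scaling, 17.0% and 4.07% with the replicate block, 15.1% and 3.00% with no variance trend, 17.4% and 3.83% with the 6 libraries alone and 22.4% and 6.10% without P in the fit; over the leave-outs they ranged from 13.7% to 18.4% in G and from 3.00% to 4.13% in B, and in B they were 6.09% with a mean of at least 10 TPM. Lower members held in G and B 2.51% and 12.5% with no filter, 2.82% and 14.4% with median-ratio scaling, 2.22% and 13.4% with no variance trend, 2.45% and 13.5% with the 6 libraries alone and 3.85% and 16.7% without P in the fit; they ranged from 2.29% to 2.99% in G and from 12.1% to 14.5% in B. In G they were 4.21% with a mean of at least 10 TPM, and in B 14.7% with a pseudocount of 0.1 and 14.4% with the replicate block. The numbers present in 1 end fell to 156 and 258 at 5 TPM, and ranged from 1319 to 3094 for G and from 2125 to 4319 for B over the leave-outs.

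Same-numbered G and B libraries shared little, with correlations of their deviations from the period mean of 0.124, 0.031 and 0.038 over the members. G replicates 2 and 3 each correlated as well or nearly as well with a B library of another number. G replicate 1 did not, with -0.061 and -0.070 for B replicates 2 and 3. The numbers are not treated as pairs. The replicate block called 6729 members, 3197 higher and 3532 lower.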

Other observations

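Nearly all members share the first part of their identifier, the prefix before the point, and the few with other prefixes had a larger share called higher in G, a difference that was not tested. The table holds 73775 such rows, and 1147 of them, under 1132 prefixes, were members. Of these 120 were higher and 54 lower in G (limma, adjusted p under 0.05), or 10.5% and 4.71%, against 4.53% and 5.18% of the 78421 members with the common prefix and 2.69% and 3.04% of all tested transcript clusters. From 1 to 10 TPM the shares higher were 8.74% of 835 and 2.96% of 57762, and under 1 TPM 15.2% of 290 and 2.24% of 5263. They held 0.271% of TPM in G and 0.247% in B, and 117 of them were present in G and listed at 0 in B, and so were members through the G libraries alone, while 56 were the reverse. Among the 78421 with the common prefix, 786 were present in G and listed at 0 in B, and 1382 were the reverse. Members that passed through the G libraries alone had to be higher in G. The larger share called higher is therefore not read as a trait of the prefix. No prefix other than the common one had 2 or more called members. What sets the prefix is not given in the sources used here.

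Over the whole table the rows with other prefixes took a share of TPM that differed between libraries of a period. It was 2.42%, 4.10% and 7.93% in B replicates 1 to 3, 7.04%, 3.10% and 8.57% in G replicates 1 to 3, and from 1.53% to 2.82% in the Y and R libraries. In P replicates 1 to 3 it was 20.6%, 14.5% and 6.15%.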
